A study of Mus musculus with 9 samples.

Results

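The cell cycle genes described here are 46 genes of dividing cells, chosen by symbol: 28 act in G2 and mitosis, 15 at the G1/S transition and in DNA replication, and 3 are growth-associated genes with broad expression. Of these, 42 had a row among the 13223 genes listed, namely 25 mitotic, 15 replication and 2 broad genes. The levels of Cdk1, Ttk, Cenpf and Hmgb2 were not analysed here, though their promoters were read. They were read in sorted thymic tuft cells, rare chemosensory epithelial cells of the medulla, from young female wild-type mice. The 4 irradiated libraries came from mice irradiated sublethally (425 rad) 3 days before the thymus was taken, and the 5 untreated libraries from age-matched mice without irradiation. The sources used here do not give the strain, the sort gate, the number of sorted cells or the link from each library to a mouse. A p-value therefore measures the spread between libraries, which may be technical. RNA was measured by bulk MARS-seq, which counts the 3' ends of polyadenylated transcripts, and the series addresses how the thymus regenerates after damage.

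A cell that divides first copies its DNA and then separates the copies. At the G1/S transition cyclin E and its kinase allow E2F factors to raise the genes of the replicative helicase (the Mcm proteins), of the sliding clamp Pcna that holds the DNA polymerase, and of the enzymes that make deoxynucleotides. Genes of mitosis follow later in the cycle: A and B cyclins, the kinases Plk1, Aurka and Aurkb, spindle motors of the kinesin family, and the ubiquitin ligase parts Cdc20 and Ube2c that end mitosis. After DNA damage, p53 raises Cdkn1a, an inhibitor of cyclin-dependent kinases. Pcna also serves DNA repair, whereas mitotic cyclins are near absent outside dividing cells. In the thymus most dividing cells are developing T cells (thymocytes), which are very sensitive to irradiation.

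Totals ran from 509157 to 939948 counts in the irradiated and from 686082 to 978442 in the untreated libraries, so that 1 count was worth 1.04 to 2.10 CPM (counts as a rate of the library total, scaled between libraries by TMM). Summed markers of tuft cells (14 genes, among them Pou2f3, Trpm5 and Il25) stood at 11668 to 15565 CPM in irradiated and 6939.6 to 15759 CPM in untreated libraries, so the labelled cell type was borne by its markers in all 9. Irradiated replicate 4, the smallest library, stood apart on the first principal component (35% of the variance), at -75.08 against -6.12 to 31.77 for the other 8. Untreated replicate 1 stood apart in the cell cycle genes themselves: it was the highest of the 9 libraries for 41 of the 42 listed genes, against 16.4% of all listed genes. Sums are therefore also given without it, as are values of these genes that it moved by over 1.5 times.

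Mitotic transcripts were found in all libraries and were scarcer in irradiated tuft cell libraries than in untreated ones. The 25 mitotic genes summed to 76.5, 91.2, 110 and 90.5 CPM in irradiated replicates 1 to 4, against 1294, 404, 196, 402 and 202 CPM in untreated replicates 1 to 5. The lowest untreated library lay above the highest irradiated one. Means were 92.0 ± 13.7 CPM (SD, n = 4) in irradiated and 500 ± 456 CPM (SD, n = 5) in untreated libraries, a 5.43-fold lower sum after irradiation, and without untreated replicate 1 the untreated mean was 301 ± 118 CPM (SD, n = 4), a 3.28-fold lower sum. In counts, these sums rest on 278 in all irradiated and 2119 in all untreated libraries, of which 1236 were in untreated replicate 1. Of the 25 genes, 14, 21, 17 and 8 had at least 1 count in irradiated replicates 1 to 4, against 25, 24, 25, 25 and 23 in untreated replicates 1 to 5. In bulk libraries such as these, fewer dividing cells and less of these RNAs per cell cannot be told apart.

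Replication transcripts differed less between groups in sum, much of which was Pcna (38.6% to 49.2% of counts in irradiated, 17.6% to 35.6% in untreated libraries). Over single genes, the median log2 ratio of group sums, irradiated over untreated, was -1.37, and -0.80 without untreated replicate 1. Rrm2, Uhrf1, Tyms, Ccne1 and Ccne2 each had only 2 to 10 counts over the 4 irradiated libraries. The 15 replication genes summed to 295, 229, 212 and 389 CPM in irradiated replicates 1 to 4, against 909, 369, 266, 337 and 272 CPM in untreated replicates 1 to 5. The groups overlapped, and untreated replicate 1 alone stood above all irradiated libraries. Means were 281 ± 80.5 CPM (SD, n = 4) in irradiated and 430 ± 271 CPM (SD, n = 5) in untreated libraries, 1.53-fold lower after irradiation. Without untreated replicate 1 the untreated mean was 311 ± 50.1 CPM (SD, n = 4), 1.11-fold above the irradiated mean. Growth-associated Stmn1 and Tubb5 summed to 130, 136, 116 and 303 CPM in irradiated and to 406, 200.01, 153, 235 and 159 CPM in untreated libraries, which overlapped as well.

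The 2 phases were also compared within each library, where scaling between libraries cancels. Mitotic counts came to 25.9%, 39.8%, 51.9% and 23.2% of replication counts in irradiated replicates 1 to 4, against 142%, 110%, 73.6%, 120% and 74.4% in untreated replicates 1 to 5. Again the groups did not overlap, with a mean of 35.2 ± 13.3% (SD, n = 4) in irradiated and 104 ± 29.8% (SD, n = 5) in untreated libraries. On the log2 scale the difference of the means of this ratio was -1.59, and -1.46 without untreated replicate 1. A pair of well expressed genes carried much of both sums in irradiated libraries: the centromeric histone Cenpa made up 14.3% to 55.8% of mitotic counts there and 6.96% to 19.5% in untreated libraries, and Pcna made up 38.6% to 49.2% of replication counts in irradiated and 17.6% to 35.6% in untreated libraries. With both left out, the mitotic share of replication counts ran from 20.2% to 69.0% in irradiated and from 88.1% to 162% in untreated libraries, still without overlap. No test was run on these sums, because their genes were chosen with results of these libraries known.

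**Figure D1:**
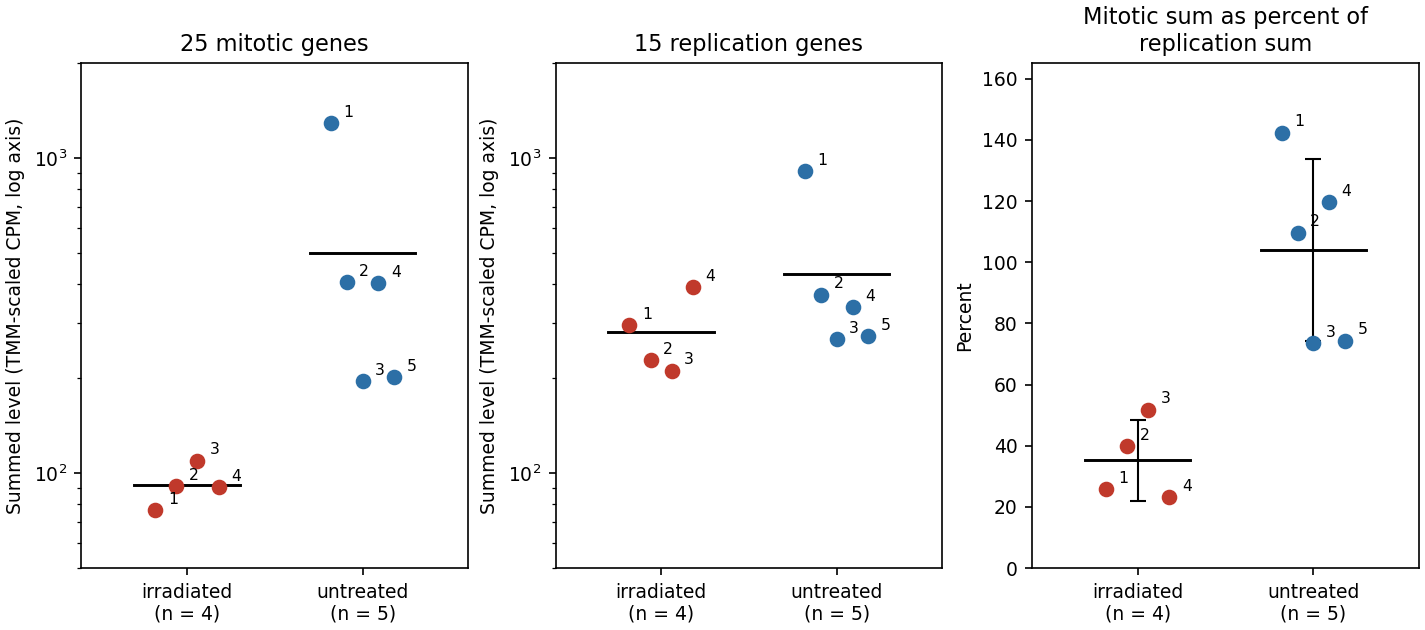
Summed level of 25 mitotic genes (left) and 15 replication genes (middle), in TMM-scaled CPM on a log axis, and the mitotic sum as a percent of the replication sum (right), for 4 irradiated and 5 untreated libraries. Points are libraries with their replicate number, horizontal lines are group means, and bars in the right panel are the SD. Irradiated libraries lay below all untreated ones in the left and right panels and on both sides of untreated replicates 2 to 5 in the middle one.

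Promoters of the genes on which the comparison turns are shown here because the 2 phases differ in the short motifs that their promoters carry. They come from RefSeq on GRCm38.p6, the mm10 build, run from 250 bases before to 50 after the annotated start site, and are written 5' to 3' on the gene's own strand. Capitals mark matches on either strand to the cell cycle homology region (CHR, TTTGAA), to the CCAAT box (CCAAT) or to an E2F site (TTTCCCGC, TTTCGCGC, TTTGCCGC or TTTGGCGC), and where matches meet, their capitals run together. The windows are chr4:124936868-124937167 (minus strand) for Cdca8, chr7:127042371-127042670 (minus) for Kif22, chr2:164769679-164769978 (plus) for Ube2c, chr11:99024140-99024439 (minus) for Top2a, chr8:75109259-75109558 (plus) for Mcm5 and chr2:132253131-132253430 (minus) for Pcna.
Cdca8: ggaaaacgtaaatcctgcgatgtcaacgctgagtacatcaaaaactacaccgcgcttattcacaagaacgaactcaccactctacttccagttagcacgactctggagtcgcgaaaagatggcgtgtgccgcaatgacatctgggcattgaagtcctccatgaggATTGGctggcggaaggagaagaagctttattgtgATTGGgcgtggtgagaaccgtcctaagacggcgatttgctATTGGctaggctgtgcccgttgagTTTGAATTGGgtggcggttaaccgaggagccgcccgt
Kif22: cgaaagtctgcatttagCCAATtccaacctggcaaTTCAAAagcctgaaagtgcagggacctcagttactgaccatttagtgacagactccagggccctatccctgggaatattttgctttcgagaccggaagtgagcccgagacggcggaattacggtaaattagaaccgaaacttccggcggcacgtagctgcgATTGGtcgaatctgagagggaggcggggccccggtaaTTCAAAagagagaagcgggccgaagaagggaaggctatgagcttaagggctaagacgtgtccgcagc
Ube2c: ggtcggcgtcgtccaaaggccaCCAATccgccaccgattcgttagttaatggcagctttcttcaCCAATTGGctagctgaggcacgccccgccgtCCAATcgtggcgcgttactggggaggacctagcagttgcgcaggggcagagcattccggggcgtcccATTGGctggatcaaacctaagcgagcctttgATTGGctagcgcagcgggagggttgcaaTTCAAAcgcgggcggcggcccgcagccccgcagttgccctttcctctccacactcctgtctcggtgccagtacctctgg
Top2a: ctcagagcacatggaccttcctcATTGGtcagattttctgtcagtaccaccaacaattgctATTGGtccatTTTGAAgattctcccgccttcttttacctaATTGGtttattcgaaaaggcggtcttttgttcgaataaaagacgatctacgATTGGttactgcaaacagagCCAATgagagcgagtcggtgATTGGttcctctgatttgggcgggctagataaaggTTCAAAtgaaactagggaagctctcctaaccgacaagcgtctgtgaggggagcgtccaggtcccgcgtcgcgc
Mcm5: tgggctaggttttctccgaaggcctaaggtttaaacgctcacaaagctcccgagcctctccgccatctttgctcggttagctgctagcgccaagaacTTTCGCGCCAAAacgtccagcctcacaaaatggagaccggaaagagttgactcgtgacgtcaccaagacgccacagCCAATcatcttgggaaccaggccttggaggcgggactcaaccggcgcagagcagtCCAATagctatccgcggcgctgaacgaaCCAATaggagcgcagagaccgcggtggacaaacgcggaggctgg
Pcna: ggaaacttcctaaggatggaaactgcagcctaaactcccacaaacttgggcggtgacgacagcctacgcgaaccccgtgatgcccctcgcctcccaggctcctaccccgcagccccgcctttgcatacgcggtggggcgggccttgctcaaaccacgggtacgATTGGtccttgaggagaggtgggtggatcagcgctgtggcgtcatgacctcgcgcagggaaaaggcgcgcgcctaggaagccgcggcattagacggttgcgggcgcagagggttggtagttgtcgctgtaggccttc
The first 4 are mitotic genes, and each holds at least 1 CHR and at least 2 CCAAT boxes. Mcm5 holds overlapping E2F matches on the 2 strands, 3 CCAAT boxes and no CHR, and the Pcna window holds a single CCAAT box and neither of the other motifs.

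Of the 46 genes, 38 had a promoter in the RefSeq table, with 40 windows, since Mcm7 and Uhrf1 have 2 each. These 38 hold 34 of the 42 listed genes, and also Cdk1, Ttk, Cenpf and Hmgb2, whose levels were not analysed. A CHR lay in the promoters of 18 of 24 mitotic genes (75%) of 1 of 12 replication genes (Mcm2) and of 1 of 2 broad genes (Hmgb2), against 20.2% of the 27025 genes with a promoter in the table. All 18 mitotic genes also held a CCAAT box, a combination found in 7.97% of all genes. By itself the CCAAT box was found in 21 of 24 mitotic and 9 of 12 replication genes, against 41.1% of all. The E2F letters lay in 5 of 12 replication genes (Mcm3, Mcm5, Mcm6, Mcm7 and Uhrf1) and 1 of 24 mitotic genes (Cdk1), against 2.6% of all. Most CHR matches were close to the start site, and that of Cdca8 began at base 14, counting the start site as 1, and overlapped a CCAAT box, 1 of 2 overlaps between different motifs in these windows. As background, the CHR is bound by the DREAM and MuvB complexes, which repress and later activate mitotic genes, and E2F sites serve the replication genes. A match describes letters in a window and says nothing of what was bound in these cells.

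**Figure D2:**
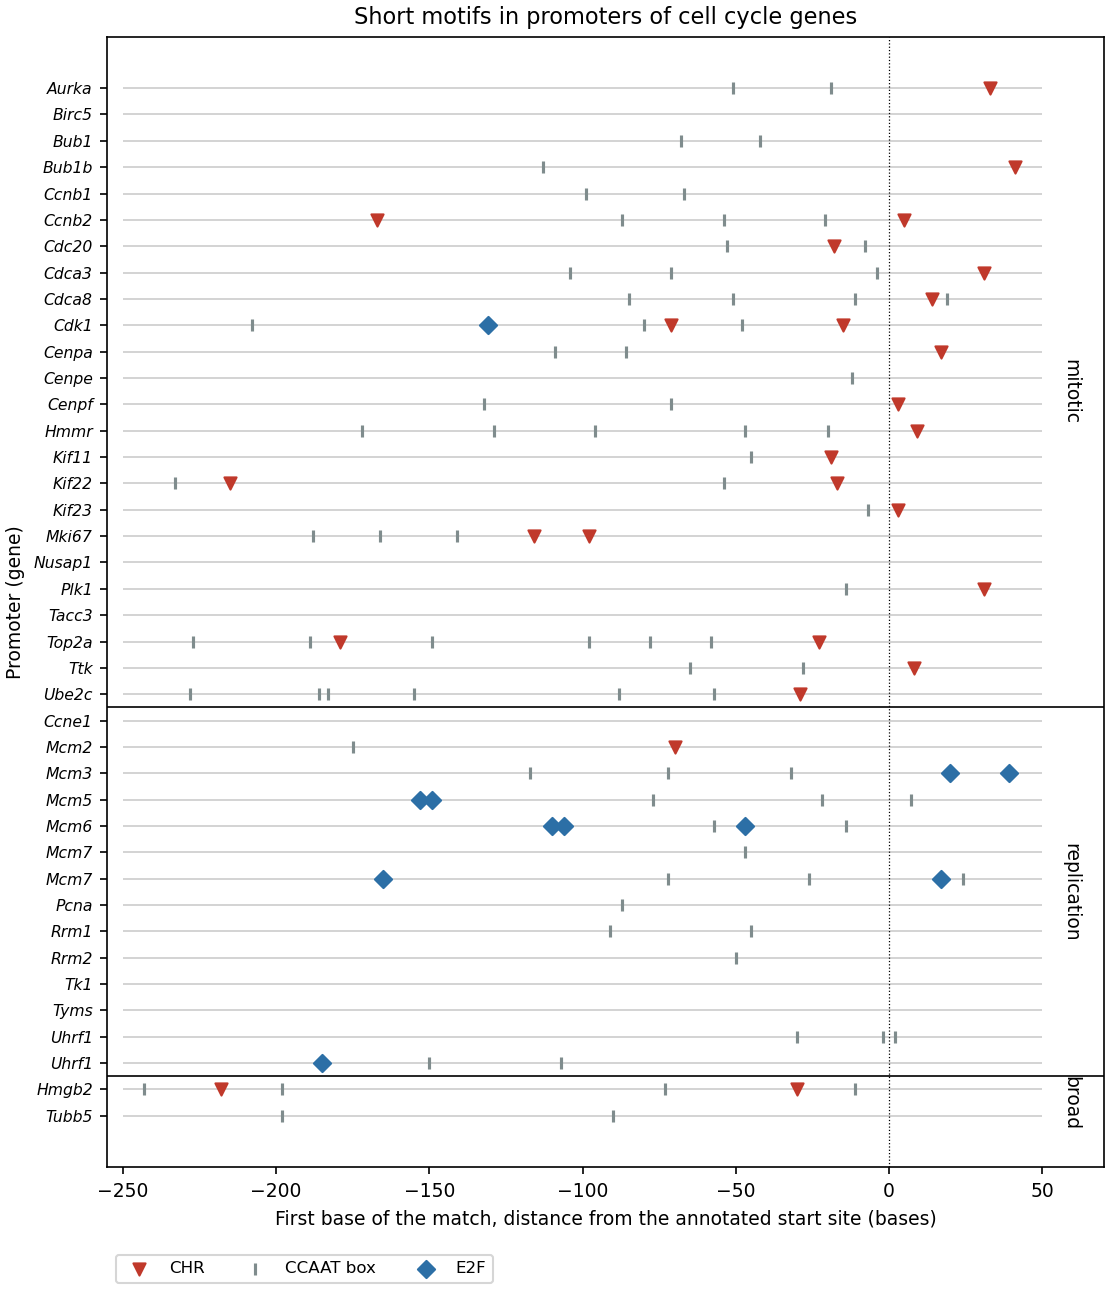
Position of CHR (triangles), CCAAT box (ticks) and E2F (diamonds) matches in 40 promoter windows of 38 cell cycle genes, as the distance in bases of the first base of a match from the annotated start site, with mitotic genes above, replication genes below them and broad genes last. Triangles are in 18 mitotic genes, 1 replication gene and 1 broad gene (Hmgb2), and diamonds in 5 replication genes and 1 mitotic gene.

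Gene by gene, 18 of the 42 listed genes had enough counts to be tested (7 mitotic, 9 replication and 2 broad), in a test with edgeR's quasi-likelihood method over 8934 genes with Benjamini-Hochberg adjustment, which calls a gene at an adjusted p under 0.05. Cdca8 and Kif22 fell after irradiation and none of the 18 rose, where 0.123% of all tested genes were called lower and 1.22% higher. At an unadjusted p under 0.05, 9 of the 18 were lower (5 mitotic, 3 replication and 1 broad), against 4.52% of all tested genes. The other 24 genes were too low to test. A gene nearly absent after irradiation passed the filter on low counts through its untreated libraries, so the tested genes do not stand for all 42.

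Over all 42, counts were therefore also summed within each group and set against the group's total (exact 95% intervals of such ratios cover counting error only, not the spread between libraries). By this measure 25 of 25 mitotic, 14 of 15 replication and 2 of 2 broad genes were lower in irradiated libraries, against 57.3% of all listed genes. Without untreated replicate 1 the counts were 25 of 25, 11 of 15 and 2 of 2, against 56.4%. A gene is listed only if it reached at least 6 counts in a library, and most mitotic genes did so in untreated libraries alone. Some, such as Bub1 and Tpx2, did so only in untreated replicate 1. The lower level of such genes was largely fixed by the listing, so the number of lower genes is no independent support. The same listing applies to the other gene lists below. The median log2 ratio of irradiated over untreated was -3.34 for mitotic and -1.37 for replication genes, and -0.07 for all 13223 genes. Without untreated replicate 1 these medians were -2.33 for mitotic genes, -0.80 for replication genes and -0.05 for all genes. All irradiated libraries lay below all untreated ones for 13 of the 42 genes, against 2.34% of all listed genes, and 11 of the 13 were mitotic. Leaving out untreated replicate 1 could not remove any of these 13, and it added none of the 42. Of all listed genes, 3.39% lay below untreated replicates 2 to 5.

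**Figure D3:**
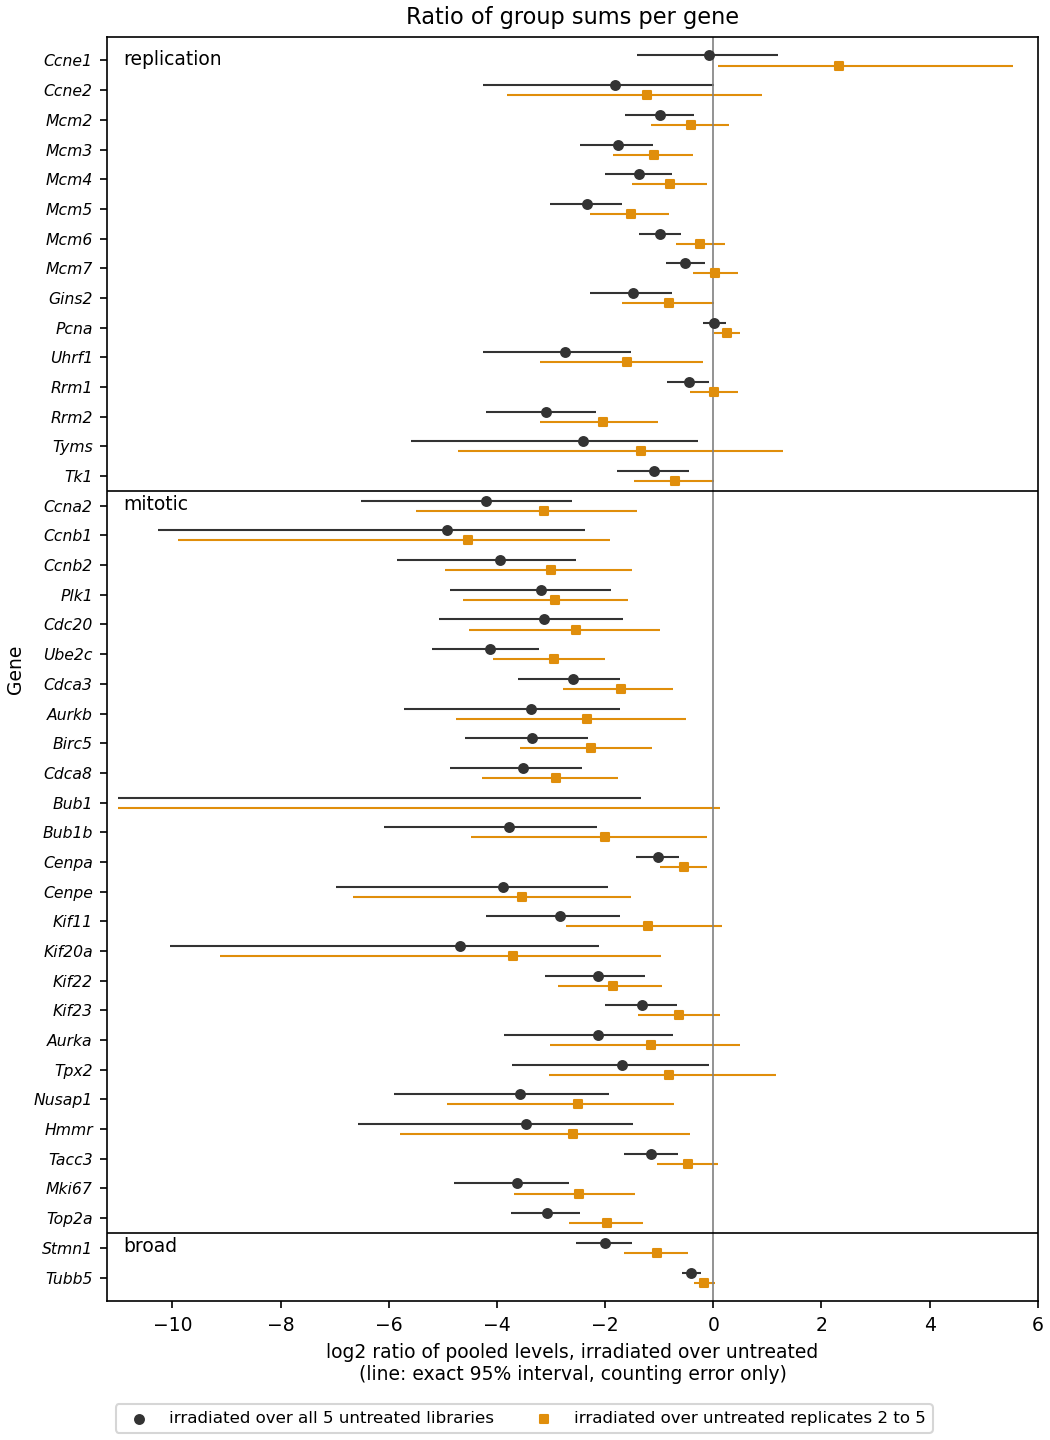
Log2 ratio of pooled levels, irradiated over untreated, for 42 cell cycle genes, against all 5 untreated libraries (circles) and against untreated replicates 2 to 5 (squares). Lines are exact 95% intervals for counting error, and Bub1, without counts after irradiation, has only a line that is cut at the left edge. All mitotic points lie left of 0 against either set, while Pcna and Ccne1 lie near 0 against all 5. Against replicates 2 to 5, Mcm7 and Rrm1 lie near 0, and Pcna (0.25) and Ccne1 (2.32, on few counts) lie right of it.

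The smallest edgeR adjusted p among them was that of Cdca8, which encodes borealin, a subunit of the chromosomal passenger complex that corrects faulty attachments of chromosomes to the spindle. Cdca8 stood at 1.56, 2.07, 4.48 and 0 CPM in irradiated libraries, against 56.5, 34.1, 14.8, 14.5 and 8.36 CPM in untreated ones. Every irradiated library was below every untreated one. Means were 2.03 ± 1.86 CPM (SD, n = 4) after irradiation and 25.6 ± 19.8 CPM (SD, n = 5) without it, with a log2 fold change of -3.40 ± 0.72 (SE, edgeR adjusted p = 0.0339). It rests on 7 counts in irradiated and 106 in untreated libraries, a pooled ratio of 0.0870 (0.0342 to 0.186), and of 0.134 (0.0514 to 0.296) without untreated replicate 1. The gene lies on the minus strand of chromosome 4 (124918465 to 124939311, mm10).

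Kif22, a kinesin that pushes chromosome arms towards the spindle equator, was the other gene that fell. Its level was 3.12, 3.11, 4.48 and 8.42 CPM in irradiated libraries, against 29.3, 19.3, 19.7, 14.5 and 9.76 CPM in untreated ones. The groups were separate, by a narrow gap between irradiated replicate 4 and untreated replicate 5. Means were 4.78 ± 2.51 CPM (SD, n = 4) after irradiation and 18.5 ± 7.27 CPM (SD, n = 5) without it, and the log2 fold change was -2.03 ± 0.47 (SE, edgeR adjusted p = 0.0485). Here untreated replicate 1 mattered less, with a pooled ratio of 0.228 (0.116 to 0.415) over all libraries and 0.276 (0.137 to 0.518) without it. Kif22 lies on the minus strand of chromosome 7 (127027729 to 127042471).

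Both calls were also examined with single libraries left out. Without untreated replicate 1, 2, 3 or 4, neither gene passed the filter on low counts, so neither was tested. Without irradiated replicate 1 or 2, both missed the threshold at fold changes close to those above: Cdca8 was at -3.28 and -3.34 (edgeR adjusted p = 0.146 and 0.129), and Kif22 at -1.90 and -1.84 (edgeR adjusted p = 0.195 and 0.206). With no filter and without untreated replicate 1, the log2 fold change was -2.86 for Cdca8 (edgeR adjusted p = 0.0722) and -1.76 for Kif22 (0.172). Without irradiated replicate 3 Cdca8 alone was called, without irradiated replicate 4 Kif22 alone, and without untreated replicate 5 both. DESeq2's Wald test with Benjamini-Hochberg adjustment called 5 of the 18 tested genes lower, adding Top2a, Ube2c and Mcm5, where it called lower 0.741% of all genes to which it gave an adjusted p.

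Among the cyclins and kinases that drive mitosis and the ubiquitin ligase that ends it, 7 genes summed to 7.80, 16.6, 12.3 and 14.7 CPM in irradiated libraries, against 384, 113, 45.6, 124 and 71.1 CPM in untreated ones. Ube2c, the ubiquitin-conjugating enzyme of the anaphase-promoting complex, stood at 0, 2.07, 6.72 and 4.21 CPM in irradiated libraries, against 159, 38.5, 11.1, 28.9 and 27.9 CPM in untreated ones. The groups did not overlap, and its log2 fold change of -3.95 ± 0.99 (SE) had an edgeR adjusted p of 0.122. With no filter and without untreated replicate 1, which held 152 of its 229 untreated counts, Ube2c was at -2.91 (edgeR adjusted p = 0.0374), the only one of the 42 genes called there. Cdc20, the activator of that complex, stood at 1.56, 3.11, 0 and 0 CPM in irradiated libraries, against 24.1, 5.93, 7.399, 9.21 and 8.36 CPM in untreated ones. It was separate between groups but too low to test, with a pooled ratio of 0.115, and of 0.173 without untreated replicate 1.

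Cyclin A2, encoded by Ccna2, serves S phase as well as the entry into mitosis. Ccna2 stood at 0, 1.04, 2.24 and 0 CPM in irradiated libraries, against 49.2, 14.8, 6.17, 3.95 and 11.2 CPM in untreated ones, on 3 and 73 counts. The B cyclins, whose destruction ends mitosis, were as scarce. Ccnb1 stood at 1.56, 0, 0 and 0 CPM in irradiated libraries, a single count, against 17.8, 7.41, 4.93, 11.8 and 6.97 CPM in untreated ones. Ccnb2 stood at 0, 3.11, 0 and 2.10 CPM in irradiated libraries, against 51.3, 14.8, 6.17, 17.1 and 5.58 CPM in untreated ones. For these 3 cyclins the groups did not overlap, and the pooled ratios were 0.0542 (0.0109 to 0.165) for Ccna2, 0.0329 (0.000814 to 0.194) for Ccnb1 and 0.0651 (0.0173 to 0.173) for Ccnb2. Without untreated replicate 1 they were 0.115 (0.0223 to 0.375) for Ccna2, 0.0433 (0.00105 to 0.267) for Ccnb1 and 0.125 (0.0320 to 0.351) for Ccnb2. Plk1, a kinase of centrosomes and kinetochores, overlapped between groups, with 5 counts in irradiated and 60 in untreated libraries and a pooled ratio of 0.110. Cdca3, a trigger of mitotic entry, had 12 and 96 counts and a ratio of 0.165 (0.307 without untreated replicate 1), and overlapped too.

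Besides Cdca8, the chromosomal passenger complex was represented by its kinase and by its survivin subunit. Aurkb, the kinase, stood at 0, 2.07, 1.12 and 0 CPM in irradiated libraries, against 27.2, 2.96, 3.70, 10.5 and 2.79 CPM in untreated ones. Birc5, which encodes survivin, stood at 4.68, 2.07, 3.36 and 0 CPM in irradiated libraries, against 72.2, 23.7, 4.93, 14.5 and 9.76 CPM in untreated ones. In both the groups were separate, by less than 1 CPM, and neither gene reached the counts needed for the test. The 3 genes of the complex together had 18 counts in irradiated and 254 in untreated libraries, of which 149 were in untreated replicate 1. The pooled ratios without that library were 0.199 for Aurkb and 0.210 for Birc5, against 0.0964 and 0.0985 with it.

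Spindle motors and other mitotic genes varied more. Kif20a, a motor of the central spindle at cytokinesis, stood at 0, 1.04, 0 and 0 CPM in irradiated libraries, against 22.0, 7.41, 2.47, 5.26 and 2.79 CPM in untreated ones, with no overlap. Its pooled ratio was 0.0388 (0.000954 to 0.231), and 0.0767 (0.00180 to 0.510) without untreated replicate 1. Kif11, which pushes the spindle poles apart, had 7 and 66 counts, and its pooled ratio was 0.140 with all libraries and 0.436 (0.152 to 1.12) without untreated replicate 1. Kif23, which acts at the midbody, had a log2 fold change of -1.27 (edgeR adjusted p = 0.499), or of -0.66 with no filter and without untreated replicate 1. Top2a, the topoisomerase that untangles sister chromatids, stood at 9.36, 7.26, 10.1 and 4.21 CPM in irradiated libraries, against 181, 43.0, 17.3, 53.9 and 12.5 CPM in untreated ones. Its groups did not overlap, and its log2 fold change was -2.95 ± 0.85 (SE, edgeR adjusted p = 0.186), or -1.95 with no filter and without untreated replicate 1. Mki67, the proliferation marker Ki-67 that coats mitotic chromosomes, had 9 counts in irradiated and 147 in untreated libraries, a pooled ratio of 0.0807, and of 0.179 without untreated replicate 1. Its untreated levels ran from 2.79 to 102 CPM and overlapped the irradiated ones, which ran from 0 to 6.72 CPM.

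Checkpoint and kinetochore genes were at the edge of detection apart from Cenpa. Bub1, a kinase of the spindle checkpoint, had no count in the irradiated libraries and 14 in the untreated ones. That is 3.54-fold lower if a floor of 3 counts over the irradiated group is used, and the exact interval of its pooled ratio ran from 0 to 0.397. Of those 14 untreated counts, 9 were in untreated replicate 1. Without that library the floor gives 1.67-fold, and the interval ran from 0 to 1.09, which includes no change. Bub1b had 3 and 54 counts, of which the larger part was in untreated replicate 1 at 44.0 CPM, and its pooled ratio was 0.0732, or 0.249 (0.0451 to 0.923) without that library. Cenpe, a kinetochore motor, had 2 and 39 counts and a pooled ratio of 0.0676 (0.00791 to 0.261). Cenpa, the histone that marks centromeres, behaved otherwise: it stood at 10.9, 27.0, 20.2 and 50.5 CPM in irradiated libraries, against 96.3, 28.1, 38.2, 42.1 and 37.6 CPM in untreated ones. Irradiated replicate 4 was above 4 of the 5 untreated libraries, and the log2 fold change was -0.90 (edgeR adjusted p = 0.5004), or -0.48 without untreated replicate 1. Among spindle assembly genes, Tacc3 had a log2 fold change of -1.08 (edgeR adjusted p = 0.431), or of -0.49 without untreated replicate 1. Aurka, Tpx2, Nusap1 and Hmmr had 2 to 5 counts each in irradiated and 17 to 47 in untreated libraries, with pooled ratios of 0.0841 to 0.310, and of 0.166 to 0.5695 without untreated replicate 1.

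**Figure D4:**
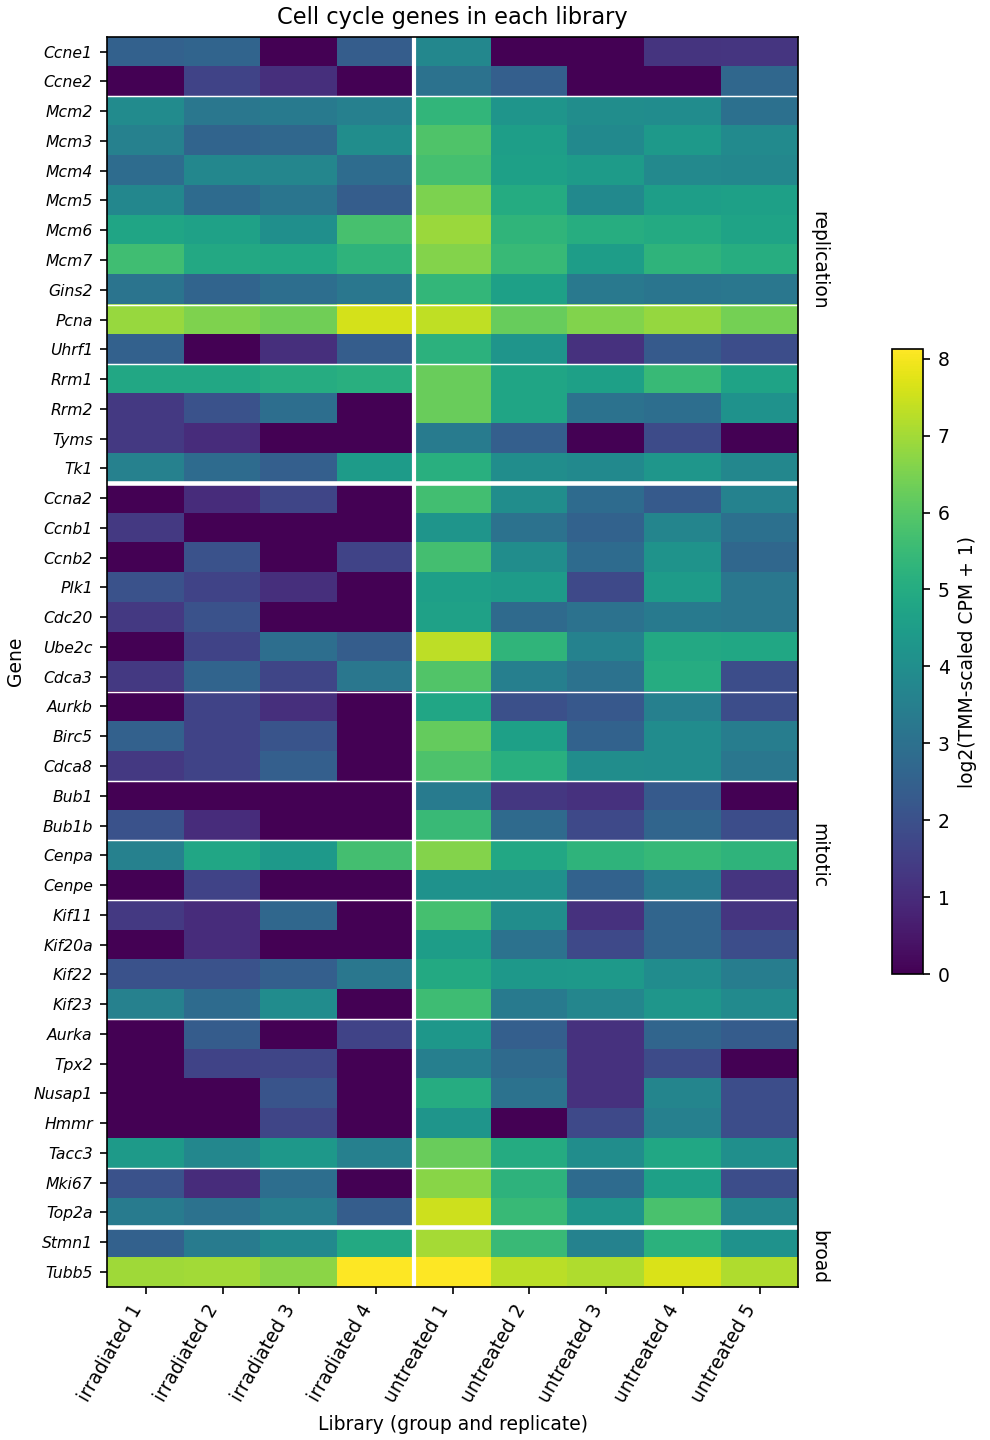
Level of 42 cell cycle genes in each library, as log2 of TMM-scaled CPM plus 1, with irradiated libraries left of untreated ones, and genes grouped as replication, mitotic and broad from top to bottom. Most mitotic rows are darker in irradiated than in untreated libraries, and untreated replicate 1 is the brightest column.

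Replication genes differed among themselves. Pcna, the sliding clamp, stood at 117, 93.3, 81.7 and 191 CPM in irradiated libraries, against 160.2, 74.1, 94.96, 114 and 85.0 CPM in untreated ones. The groups overlapped, with means of 121 ± 49.3 CPM (SD, n = 4) in irradiated and 106 ± 33.9 CPM (SD, n = 5) in untreated libraries. Its log2 fold change was 0.17 ± 0.28 (SE, edgeR adjusted p = 0.893), with a sign that turned without irradiated replicate 4, where it was -0.13, and under limma-voom, where it was -0.046, and it was 0.37 without untreated replicate 1. Pcna was the gene, of the 42, whose highest level was in an irradiated library. Uhrf1, which passes DNA methylation on to the new strand, had 6 counts in irradiated and 53 in untreated libraries and a pooled ratio of 0.149 (0.0524 to 0.347), or of 0.332 (0.108 to 0.874) without untreated replicate 1, which held 35 of the 53.

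The 6 Mcm subunits of the replicative helicase form a hexamer, yet their values spread widely. Mcm5 stood at 12.5, 6.22, 7.84 and 4.21 CPM in irradiated libraries, against 90.0, 31.1, 13.6, 22.4 and 23.7 CPM in untreated ones. No irradiated library reached an untreated one, and the log2 fold change was -2.22 ± 0.58 (SE, edgeR adjusted p = 0.104), or -1.52 without untreated replicate 1. Mcm4 stood at 6.24, 12.4, 12.3 and 6.31 CPM in irradiated libraries, against 52.3, 23.7, 20.96, 13.2 and 12.5 CPM in untreated ones. These groups were adjacent without overlap, and the edgeR adjusted p was 0.262 at a log2 fold change of -1.34, which was -0.83 with no filter and without untreated replicate 1. Mcm6 stood at 26.5, 23.8, 15.7 and 52.6 CPM in irradiated libraries, against 118, 38.5, 32.1, 30.2 and 25.1 CPM in untreated ones. Mcm7 stood at 48.4, 29.0, 27.99 and 37.9 CPM in irradiated libraries, against 97.4, 43.0, 22.2, 38.1 and 32.1 CPM in untreated ones. Both overlapped, with log2 fold changes of -0.80 for Mcm6 (edgeR adjusted p = 0.649) and -0.41 for Mcm7 (0.788), and without untreated replicate 1 they were at -0.15 and 0.068. Mcm2 and Mcm3 were at -0.89 and -1.61, with edgeR adjusted p of 0.549 and 0.212, and without untreated replicate 1 at -0.37 (with no filter) and -1.03. Gins2, a subunit of the helicase's GINS partner, had 20 and 74 counts and a pooled ratio of 0.356 (0.206 to 0.590), or of 0.569 (0.312 to 1.01) without untreated replicate 1.

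The 2 subunits of ribonucleotide reductase, the enzyme that makes deoxynucleotides, differed from each other. Rrm1, the large subunit, had a log2 fold change of -0.39 (edgeR adjusted p = 0.783), which was 0.024 without untreated replicate 1. Rrm2, the small subunit, which is made mainly in S phase, had 10 counts in irradiated and 113 in untreated libraries, a pooled ratio of 0.117 (0.0544 to 0.222), and of 0.243 (0.109 to 0.493) without untreated replicate 1. Tk1, the thymidine kinase of cycling cells, was at -0.95 (edgeR adjusted p = 0.518), or -0.62 without untreated replicate 1, and Tyms, thymidylate synthase, had 2 and 14 counts, 9 of the 14 in untreated replicate 1. Cyclin E was barely detected: Ccne1 had 10 counts in irradiated and 14 in untreated libraries, of which 12 were in untreated replicate 1, and Ccne2 had 3 and 14, of which 7 were there. The pooled ratio of Ccne1 was 0.941 (0.374 to 2.28), and 4.98 (1.06 to 46.8) without that library, on 10 counts against 2.

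Stmn1, which encodes the microtubule-destabilising protein stathmin, stood at 4.68, 9.33, 13.4 and 29.5 CPM in irradiated libraries, against 129, 44.4, 11.1, 35.5 and 16.7 CPM in untreated ones. The groups overlapped, with a log2 fold change of -1.83 ± 0.77 (SE, edgeR adjusted p = 0.411), or of -0.99 without untreated replicate 1. Tubb5, a beta-tubulin of most cells, stood at 125, 126, 103 and 274 CPM in irradiated libraries, against 277, 156, 142, 199.9 and 142 CPM in untreated ones. Irradiated replicates 1 to 3 were below all untreated libraries and irradiated replicate 4 was not, and its log2 fold change was -0.25 ± 0.30 (SE, edgeR adjusted p = 0.843), or -0.041 without untreated replicate 1.

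Other genes of the cell cycle were read from lists of the same pathway. Cdkn1a, the p53-induced inhibitor p21, rose: it stood at 924, 858, 744 and 1732 CPM in irradiated libraries, against 290.0, 361, 292, 416 and 427 CPM in untreated ones. Every irradiated library was above every untreated one, and the log2 fold change was 1.57 ± 0.25 (SE, edgeR adjusted p = 0.00525). None of the 6 other tested inhibitors of cyclin-dependent kinases was called, and Cdkn2a was at -0.77 (edgeR adjusted p = 0.662). Of the cyclins and kinases of G1, 0 of 4 tested genes were called (0 at an unadjusted p under 0.05), Ccnd3 being at -0.44 and Ccnd2 at -0.47. Likewise 0 of 9 RB, E2F, DREAM and MYC factors were called (1 at an unadjusted p under 0.05), with Myc at 0.97 (edgeR adjusted p = 0.216) and E2f5 at -0.48, and 0 of 11 genes of the anaphase-promoting complex and its regulators (0 unadjusted), with Fbxo5 at -0.74 and Fzr1 at 0.19.

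Of further genes outside the 46, edgeR called 0 of 11 tested mitotic and 0 of 22 tested replication genes, with 2 of each at an unadjusted p under 0.05 (10.6% of all tested genes), and the DESeq2 Wald test called 0 too. Of 46 other mitotic genes listed, 43 had a lower pooled level after irradiation (57.3% of all listed genes), 42 without untreated replicate 1 (56.4%), and 9 lay below all untreated libraries in every irradiated one (2.34%). Their sum ran from 427 to 512 CPM in irradiated and from 536 to 1431 CPM in untreated libraries, or to 727 CPM without untreated replicate 1. Cks1b, a cofactor of cyclin-dependent kinases, had a log2 fold change of -1.48 (edgeR adjusted p = 0.132), and Mad2l1, a spindle checkpoint protein, -1.51 (0.204). Of 41 other replication genes listed, 35 had a lower pooled level, 26 without untreated replicate 1, and 3 lay below all untreated libraries in every irradiated one, against the same shares of all genes. Their sums overlapped, at 662 to 854 CPM in irradiated and 705 to 1328 CPM in untreated libraries. Irradiated replicate 3 held 512 CPM of other mitotic and 691 CPM of other replication genes, and untreated replicate 3 held 536 and 755 CPM. The mitotic over replication ratio of these other genes therefore overlapped between groups, unlike that of the chosen genes. Rfc5 of the clamp loader was at -1.30 (edgeR adjusted p = 0.190) and Orc2 of the origin recognition complex at -1.13 (0.227).

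Markers of other cells of the thymus differed between the same libraries. Thymocyte markers (19 of 20 listed, among them Cd3e, Cd8a, Rag1 and Lck) summed to 84.3, 74.6, 88.5 and 101 CPM in irradiated libraries, against 1707, 467, 240.5, 274 and 173 CPM in untreated ones. The groups did not overlap, and untreated replicate 1 was the highest here as well. All 19 had a lower pooled level (57.3% of all listed genes), also without that library (56.4%). By edgeR 0 of 7 tested were called, and 5 were lower at an unadjusted p under 0.05 (4.52% of all tested genes). Ptcra, a receptor chain of immature thymocytes, was at 0 in all 4 irradiated libraries, Cd3e had 1 count in irradiated and 47 in untreated libraries, and Cd8a 2 and 55. Mitotic counts came to 90.7%, 122%, 124% and 89.6% of thymocyte marker counts in irradiated libraries, against 75.8%, 86.7%, 81.5%, 147% and 117% in untreated ones, with overlap. With Cenpa left out these shares ran from 39.6% to 101% in irradiated and from 65.6% to 132% in untreated libraries. Replication counts, in contrast, came to 239% to 385% of thymocyte marker counts in irradiated and 53.2% to 157% in untreated libraries, without overlap.

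Macrophage and dendritic cell markers (15 of 16 listed) summed to 314, 202, 951 and 339 CPM in irradiated libraries, against 2795, 1347, 777, 819 and 299.7 CPM in untreated ones. All 15 had a lower pooled level, or 13 without untreated replicate 1, against 57.3% and 56.4% of all listed genes, and Ccr7 (log2 fold change -4.90, edgeR adjusted p = 0.0110) and Ccl22 (-6.67, 0.0279), of migratory dendritic cells, were called lower. Summed fibroblast and pericyte markers were higher after irradiation, at 2906 to 4294 CPM in irradiated and 599 to 2415 CPM in untreated libraries, with 0 of 10 tested called. Summed mesothelial markers were higher as well, at 2424 to 3564 and 1426 to 2204 CPM. Of these, 4 of 6 tested were called higher, against 1.22% of all tested genes. Markers of other thymic epithelium ran from 278 to 499.6 CPM in irradiated and from 230.3 to 2010.5 CPM in untreated libraries, those of B cells from 147 to 231 and from 151 to 318 CPM, and those of endothelium from 634 to 1934 and from 621 to 1455 CPM, all with overlap. The part of these cells, thymocytes included, in the difference of the mitotic genes was not tested.

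**Figure D5:**
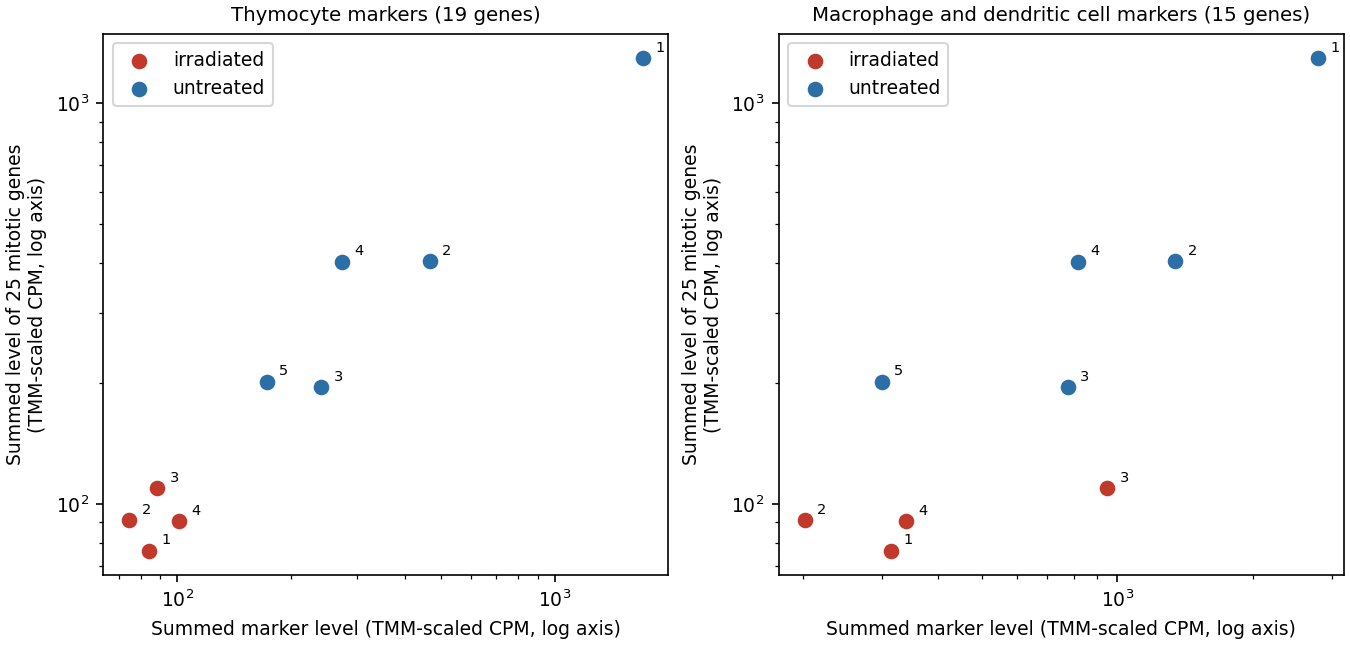
Summed level of 25 mitotic genes against that of 19 thymocyte markers (left) and 15 macrophage and dendritic cell markers (right) in 4 irradiated and 5 untreated libraries, in TMM-scaled CPM on log axes, with replicate numbers. Irradiated libraries lie together at the low end of the left panel (74.6 to 101 CPM of thymocyte markers), while in the right panel their marker sums, 202 to 951 CPM, overlap those of untreated libraries.

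The comparison made by the authors called more of these genes. In the authors' deposited table, 11 of the 42 passed, all lower after irradiation, where 0.718% of all listed genes passed in that direction. Of the 11 in the authors' deposited table, 9 were mitotic (Ccna2, Ccnb2, Plk1, Ube2c, Birc5, Cdca8, Kif22, Mki67 and Top2a) and 2 were replication genes (Mcm5 and Rrm2). Ube2c had the smallest adjusted p of the 42 in the authors' deposited table, 0.000423, at a log2 fold change of 4.00, given there as untreated over irradiated.

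Counting sets some limits on single genes. Exons of 13 of the 42 genes overlap a gene on the opposite strand in the GENCODE annotation of mm10 (Cdca8 with 9930104L06Rik, Kif22 with Gm31749, Ube2c with Tnnc2, Ccna2 with Exosc9, Cdc20 with Elovl1, Kif20a with Cdc23 and Mcm7 with Ap4m1 and Cops6, among others). The sources used here do not say whether strand was used in counting, so reads of such partners may not be separated and these levels are uncertain. Pcna, Ccnb1, Ccnb2, Kif22 and Tyms have annotated pseudogenes, with which reads could be shared.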

How the data were processed

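Bulk MARS-seq libraries of sorted tuft cells were grouped by the treatment in their labels, 4 irradiated and 5 untreated. Per the submitters' processing notes, bcl2fastq, cutadapt, STAR 2.5.2b, HTSeq, DESeq2 and the build mm10 were used, without roles. The sources used here give neither the strand setting nor whether molecular identifiers were collapsed, and a count may be a read or a molecule. The authors deposited raw counts per gene, per the file headers, for genes that reached at least 6 counts in a library. The deposited normalized signal equals counts divided by 1 size factor per library, checked on the values, and its mean stands beside it. The deposited regularized log2 values were not used. The authors' log2 fold change is untreated over irradiated, with the authors' p-value and adjusted p-value, and other deposited columns flag the genes that passed.

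Groups were compared with edgeR 4.0.16 under R 4.3.3 (TMM, filterByExpr with a minimum count of 10, robust quasi-likelihood F test, Benjamini-Hochberg over 8934 genes at 0.05), which gave a biological coefficient of variation of 28.9%. The standard error is the size of the log2 fold change divided by the square root of F. Scripts were tested on simulated data. CPM are scaled by TMM. Pooled ratios divide group sums of counts by group sums of effective library sizes, with exact 95% conditional binomial intervals for counting error. A group without counts is given a floor of 3 counts, which is not a confidence bound. Symbols were placed with GENCODE M21, and RefSeq promoters were matched by symbol. Columns of other series numbered 0. Replicate libraries differed by more than sampling noise (chi-square per degree of freedom 2.4 to 10.75), so none was counted as a duplicate.

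The genes, their phases and the pathway and marker lists were chosen with earlier results of these data known, so they carry no test over the list. Values in every library are given for genes called by edgeR, for the 3 of each phase with the highest mean CPM, and for genes whose groups do not overlap, and of each pathway list for the called gene, with log2 fold changes for the genes with the smallest p (2 of a list, or 1 beside Cdkn1a). Alternatives were other scalings, other filters on low counts, limma-voom (limma 3.58.1), DESeq2 1.42.0 with its Wald test, a replicate block and leaving out each library.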

Additional observations from a re-analysis of the deposited data

Results flagged for a closer look

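Of 62 groups of values examined for a single library far from the rest of its group, 21 were flagged. The cut-off flags about 1 in 20 only among independent, normally distributed values. Low counts of genes that vary together, and sums of the same genes, are not such values, so the number 21 has no chance rate to be read against. In 16 of the 21 that library was untreated replicate 1. It held 1294 CPM of mitotic genes, 909 CPM of replication genes and 1707 CPM of thymocyte markers, the highest value of its group each time. Among mitotic genes, untreated replicate 1 lay apart for Birc5 (72.2 CPM), Ccna2 (49.2 CPM), Ccnb2 (51.3 CPM), Cdc20 (24.1 CPM), Cenpa (96.3 CPM), Kif20a (22.0 CPM), Top2a (181 CPM) and Ube2c (159 CPM). Among the others it lay apart for Mcm4 (52.3 CPM), Mcm5 (90.0 CPM), Mcm6 (118 CPM), Mcm7 (97.4 CPM) and Stmn1 (129 CPM).

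Irradiated replicate 4 lay above the rest of its group for Tubb5 (274 CPM) and for the sum of the broad genes Stmn1 and Tubb5 (303 CPM). Ccnb1 in irradiated replicate 1 (1.56 CPM) and Kif20a in irradiated replicate 2 (1.04 CPM) each rest on the only count in their group. Untreated replicate 2 held 2010.5 CPM of markers of other thymic epithelium, above the other untreated libraries.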

How the results depend on the processing

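Among the chosen genes, the separation of mitotic from replication genes was stable in direction. The ratio of other mitotic to other replication genes, outside that choice, overlapped between groups. The log2 difference of the mitotic sum was -2.44 and ran from -2.65 to -1.70 with a library or the 2 that stood apart left out or another scaling, and -3.34 as the median over genes. That of the replication sum was -0.61, ran from -0.81 to -0.14 under the same settings, and was -1.37 as the median over genes. The mitotic over replication ratio of -1.59 ran from -1.80 to -1.29.

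Calls of single genes were less stable. Against 2 genes called lower, both mitotic, 1 was called with DESeq2 size factors, 1 with at least 10 CPM in 4 libraries, and 5 by the DESeq2 Wald test (4 mitotic and 1 replication gene), and leaving out 1 library gave 0 to 2, with neither gene past the filter on low counts without untreated replicate 1, 2, 3 or 4. No low-count filter gave 2, Ccnb1 and Cdca8. In settings chosen after seeing the data, leaving out untreated replicate 1 and irradiated replicate 4 called 1, Ube2c, as did no low-count filter without untreated replicate 1. The replicate block called 1 replication gene, Mcm5, beside Cdca8 and Top2a. The shared replicate numbers did not pair the libraries (correlations of deviations -0.123 to 0.141), so the block is given here only. Pathway genes called were 1, and 2 with no low-count filter (Kif4 added) or with at least 10 CPM (Pimreg added).

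Of 314 refits of single genes, 286 kept direction and side of the threshold, 14 lost and 7 gained a call, and 7 changed sign. The fit without untreated replicate 5 is counted again among them, as replicates 1 to 4 of both groups. Fits in which a gene failed the filter on low counts are not among them, such as Cdca8 and Kif22 without untreated replicate 1, 2, 3 or 4. With 1 library left out, Mcm7 ran from -0.59 to 0.068, Rrm1 from -0.53 to 0.024 and Pcna from -0.13 to 0.37. Mcm7 was 0.038 without untreated replicate 1 and irradiated replicate 4 and 0.080 without untreated replicate 1 and with no filter, where Rrm1 was 0.031, and Pcna was -0.046 with limma-voom. The causes were not tested. The mitotic sum rests on 278 counts over 4 irradiated libraries.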
